A study of Mus musculus with 13 samples.

Results

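The 42 genes described here encode the machinery of autophagy and the TFEB family of transcription factors. They were chosen by name from the deposited table of 31528 genes, and all 42 passed the filter on low counts, which kept 21808 genes. They fall into 7 steps. These are initiation (5 genes), nucleation (6), effectors of phosphatidylinositol 3-phosphate (PI3P) and lipid transfer (5), the conjugation enzymes (10), the ATG8 family (5), cargo receptors (8) and the TFEB family regulators (3). RNA came from whole mouse blastocysts of the B6D2F1 cross, whose background mixes C57BL/6 and DBA2J. The 13 libraries came from amplified full-length cDNA of very small RNA inputs and carried no molecular identifiers. The reference group, called E4.5, held 2 libraries of blastocysts of embryonic day 4.5 from mothers fed normally. Every other group was of embryonic day 5.5. OVX (2 libraries) came from ovariectomised mothers, the classical way to hold mouse blastocysts in diapause, a reversible arrest before implantation. Starvation (2 libraries) came from a starvation treatment. Depleted KSOM (2 libraries) was cultured in the embryo medium KSOM lacking protein and carbohydrate components. Reduced KSOM (3 libraries) had lowered arginine, leucine, isoleucine, lysine, glucose and lactate. Targeted OVX (2 libraries) also came from ovariectomised mothers and received guide RNAs against Nprl2 and Tsc2, 2 genes whose products restrain the growth kinase complex mTORC1, and its genotype is labelled as a knockout of both.

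Autophagy encloses cytoplasm in a double membrane and delivers it to the lysosome, so that a cell short of nutrients can reuse its own components. The ULK1 kinase complex starts the process, the class III phosphatidylinositol 3-kinase complex marks the membrane with PI3P, and ATG2 proteins carry lipid into it. A ubiquitin-like pathway then attaches ATG8 proteins (the LC3 and GABARAP subfamilies) to the membrane, where receptors bring cargo such as mitochondria. When mTORC1 is active it holds ULK1 and TFEB inactive, and TFEB, TFE3 and MITF switch on lysosomal and autophagy genes from motifs with the core CACGTG. In the mouse preimplantation embryo autophagy is known for clearing maternal proteins soon after fertilisation.

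The sequences that bear on TFEB family targets are given first. RefSeq promoter windows (GRCm38.p6, from 250 bases before to 50 after an annotated start) matched 35 of the 42 genes, in 44 windows. CACGTG, which reads the same on both strands, occurred in 5 of the 35 genes (14.3%), that is in 5 of 44 windows (11.4%), against 7.15% of all 32851 windows. The longer CLEAR element, in the strict form of CACGTG with GT before it and AC after it, also reads the same on both strands. It was found in 0 of the 44 windows and in 0.326% of all windows. The 6 matches of CACGTG, in Atg7, Bnip3, Atg5, Atg14 and Atg3 (which held 2), are shown with the bases around them, 5′ to 3′ on the gene's strand, the motif in capitals.
Atg7, chr6:114670952-114670981, plus strand: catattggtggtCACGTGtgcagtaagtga
Bnip3, chr7:138909597-138909626, minus strand: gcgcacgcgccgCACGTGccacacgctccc
Atg5, chr10:44268313-44268342, plus strand: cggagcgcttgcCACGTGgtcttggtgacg
Atg14, chr14:47568418-47568447, minus strand: aaaacaaaatccCACGTGactggccctgag
Atg3, chr16:45158723-45158752, plus strand: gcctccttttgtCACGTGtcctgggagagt
Atg3, chr16:45158746-45158775, plus strand: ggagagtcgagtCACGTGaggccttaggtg
The motif began 132 bases before the annotated start in Atg7, 108 in Bnip3, 14 in Atg5, 1 in Atg14, and 94 and 71 in Atg3. These are matches of letters and not measured binding sites. The starts are those of RefSeq, and a gene can have more than 1. The matches of Atg7 and Atg14 lie inside the spans those genes have in the deposited table, chr6:114643097-114860614 and chr14:47540893-47570649. They are therefore not upstream of the whole gene as measured.

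For 4 genes on which the results below turn, the 250 bases before the RefSeq start are printed whole. Bnip3, Optn and Gabarap rose in several groups and Ulk1 fell in 2. Capitals again mark CACGTG.
Bnip3, chr7:138909507-138909756, minus strand: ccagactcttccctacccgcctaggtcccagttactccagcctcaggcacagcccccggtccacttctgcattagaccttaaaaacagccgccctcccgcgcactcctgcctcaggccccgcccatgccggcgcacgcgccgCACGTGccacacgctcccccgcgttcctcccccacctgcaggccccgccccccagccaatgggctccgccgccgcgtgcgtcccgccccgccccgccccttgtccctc
Optn, chr2:5064118-5064367, minus strand: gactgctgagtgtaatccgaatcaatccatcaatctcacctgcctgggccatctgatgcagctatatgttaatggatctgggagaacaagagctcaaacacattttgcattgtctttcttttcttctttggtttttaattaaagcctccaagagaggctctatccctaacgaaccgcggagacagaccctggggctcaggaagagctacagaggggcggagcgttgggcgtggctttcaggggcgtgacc
Gabarap, chr11:69991120-69991369, plus strand: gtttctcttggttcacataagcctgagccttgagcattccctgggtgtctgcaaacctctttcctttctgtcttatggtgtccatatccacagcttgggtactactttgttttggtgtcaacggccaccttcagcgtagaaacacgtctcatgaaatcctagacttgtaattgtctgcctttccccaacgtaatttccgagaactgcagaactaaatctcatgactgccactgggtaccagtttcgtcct
Ulk1, chr5:110810082-110810331, minus strand: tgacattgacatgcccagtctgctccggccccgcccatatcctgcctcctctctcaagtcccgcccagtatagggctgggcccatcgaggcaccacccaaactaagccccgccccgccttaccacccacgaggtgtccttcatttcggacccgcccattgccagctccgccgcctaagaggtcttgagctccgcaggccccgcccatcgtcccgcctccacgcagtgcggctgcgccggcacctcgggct
Of these 4 stretches the one before Bnip3 holds the motif once. The Gabarap stretch lies largely inside the gene as spanned in the deposited table, which begins at 69991143. The Bnip3 and Ulk1 stretches overlap the ends of their spans, at 138909519 and 110810097. GC content was 72.4% for Bnip3, 67.2% for Ulk1, 50% for Optn and 46.4% for Gabarap.

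Total counts per library ran from 40678386 to 72125687. All trophectoderm and epiblast marker genes examined (10 and 9) had counts in every library, and of 9 primitive endoderm markers 1 was at 0 in 1 library (depleted KSOM replicate 2). Lineage markers moved with the groups. Against E4.5 (log2 fold change, edgeR adjusted p under 0.05) the epiblast gene Pou5f1 fell in OVX (−3.11), depleted KSOM (−2.26), reduced KSOM (−2.46) and targeted OVX (−1.81), and the trophectoderm gene Cdx2 fell in OVX (−2.13), reduced KSOM (−1.7) and targeted OVX (−2.24). The trophectoderm genes Lgals3 and Tspan8 rose in all 5 groups, by 2.63 to 3.93 and by 1.64 to 3.74, and Gata3 rose in depleted KSOM (1.33). Of the 10 trophectoderm markers, 9, 6 and 7 had fitted changes above 0 in OVX, reduced KSOM and targeted OVX, where Cdx2 fell. The primitive endoderm gene Gata6 fell in OVX (−2.1), where 6 of the 9 markers of that lineage had fitted changes above 0 (median 0.5). Dab2, of the same lineage, rose in depleted KSOM (1.93), where 5 of the 9 markers were above 0 and 4 below (median 0.03). The part of lineage shares in the results below was not tested. Transcripts of other tissues stood out in 4 libraries. Of the skeletal muscle markers, 13 averaged under 5 CPM (counts relative to the library total) in E4.5. They summed to 999 CPM in replicate 1 of OVX and to 757 to 1170 CPM in the 3 reduced KSOM libraries, and to no more than 40.9 CPM in the remaining 9. The 12 neutrophil markers chosen in the same way summed to 646 CPM in replicate 1 of OVX, 138 CPM in its replicate 2, 1380 to 1910 CPM in the reduced KSOM libraries, and no more than 35.3 CPM in the remaining 8. This choice of markers fixes low sums in E4.5. All 16 muscle markers summed to 376 and 191 CPM in E4.5, 1520 in OVX replicate 1 and 1140 to 1580 in reduced KSOM. All 13 neutrophil markers summed to 73.6 and 127 CPM in E4.5, 682 in OVX replicate 1 and 1410 to 1960 in reduced KSOM. The remaining libraries held 165 to 519 CPM of muscle and 32.5 to 193 CPM of neutrophil markers. No gene of either list was at 0 in OVX replicate 1 or in reduced KSOM. On the TMM scale introduced next, Nprl2 stood at 38 and 36.5 CPM in OVX and at 13.9 and 28.6 CPM in targeted OVX, and Tsc2 at 23.3 and 14.1 CPM against 14.7 and 8.26 CPM. Neither difference passed the test (edgeR, Benjamini-Hochberg adjusted p = 0.552 and 0.575), and transcript levels do not show whether a guide cut its target.

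Gene levels are given per library as CPM after scaling by trimmed means of M values (TMM). Changes are log2 fold changes ± standard errors from edgeR's quasi-likelihood test over all genes, and a gene rose or fell where its Benjamini-Hochberg adjusted p was under 0.05. E4.5 was younger than every other group, so treatment and age cannot be told apart in any comparison with E4.5. No library came from complete KSOM, so culture and medium cannot be told apart either. Nothing in the labels says whether replicates are independent mothers or cultures, and the p-values therefore rest on the spread among these libraries, which may be technical. In RNA from whole embryos, fewer cells of a type and less RNA per cell cannot be told apart.

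Most of the 42 genes did not pass the test in any 1 comparison, and those that did came from every step but the TFEB family regulators, the cargo receptors being called most often. Against E4.5, 2 of 42 genes (4.76%) changed in OVX and both rose, where 2.04% of all genes tested changed (1.56% rose and 0.481% fell). In starvation 3 rose and 1 fell, 9.52% of the 42, where 2.21% of all genes changed (1.68% rose and 0.532% fell). In depleted KSOM 6 rose and 0 fell, 14.3% of the 42, where 5.51% of all genes changed (3.29% rose and 2.21% fell). Mitochondrially encoded genes held 12.2% and 13.2% of the counts in depleted KSOM and 2.05% to 7.4% in the other 11 libraries, and their part in this count was not tested. In reduced KSOM 1 rose and 2 fell, 7.14% of the 42, where 1.13% of all genes changed (0.77% rose and 0.362% fell). In targeted OVX 1 rose and 2 fell, again 7.14%, where 2.66% of all genes changed (1.68% rose and 0.986% fell). With the 4 groups of untargeted day 5.5 embryos (the induced groups) averaged, called the average below, 5 genes rose and 1 fell, 14.3% of the 42, where 5.01% of all genes changed (2.48% rose and 2.53% fell). These 6 comparisons share the 2 E4.5 libraries. The shares of all genes depend on the filter, since they include genes with a mean under 5 CPM. Of the 9292 genes with a mean CPM of at least 5, edgeR called 888, 978, 1697, 499, 1039 and 1408 in the order given. Among those of the 42 genes kept, it called 5, 4, 8, 4, 6 and 8. Whether the 42 genes changed more often than genes of similar level was not tested. On the log2 scale the 42 genes had a median change of 0.16 (OVX), 0.32 (starvation), 0.5 (depleted KSOM), 0.04 (reduced KSOM) and −0.15 (targeted OVX), beside medians, taken in the same order, over all genes of 0, 0, −0.09, 0.15 and −0.16. Scaling by library totals moved the medians of all genes to −0.53, −0.17, −0.41, −0.5 and −0.92, and those of the 42 genes to −0.47, 0.09, 0.19, −0.63 and −0.88. The gap between the 42 genes and all genes was thus largest in depleted KSOM under both scalings among these 5 comparisons. The directions of the calls depend on the scaling. With library totals 1 gene rose and 4 fell in the average, where of all genes 186 rose and 1395 fell. Ulk1, Atg13 and Atg14, not called in the average above, fell there. In depleted KSOM 2 rose and 2 fell, where of all genes 273 rose and 707 fell. Limma on FPKM gave 2 higher and 4 lower in the average, with 400 and 1804 of all genes.

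The calls against E4.5 lean on both of its libraries, and most on replicate 1. Without that library edgeR called 0 of the 42 genes in each of the 6 comparisons, with 5 to 14 at an unadjusted p under 0.05, while 46 to 378 of all genes were still called. Without E4.5 replicate 2 the counts were 0 in OVX and reduced KSOM, 2 in starvation and depleted KSOM, and 1 in targeted OVX and in the average. Those fits leave 1 library in the reference and assume that it varies as the other groups do. Whether the 42 genes lost calls more often than all genes was not tested.

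**Figure D1:**
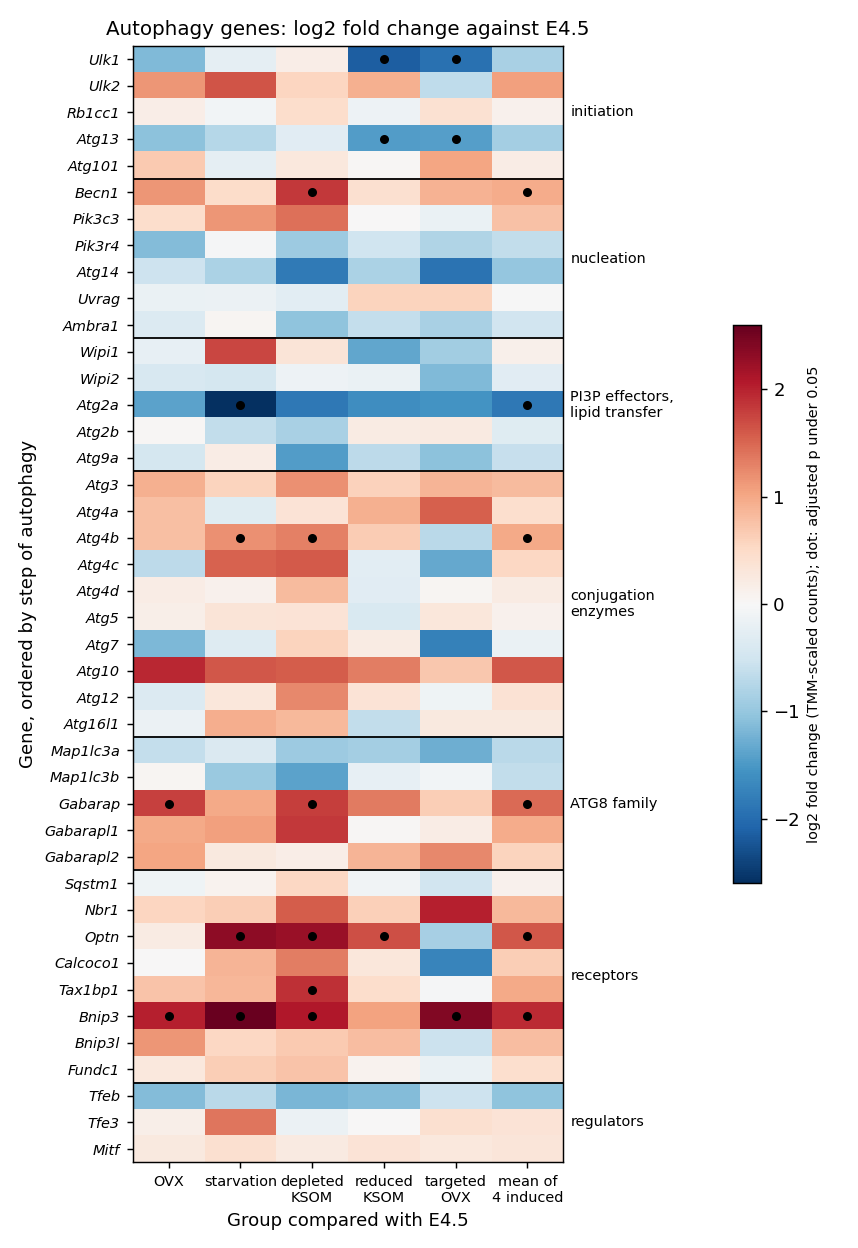
Log2 fold change (colour, TMM-scaled counts) of each of the 42 genes (vertical axis, grouped by step) against E4.5 in 5 groups and in the mean of the 4 induced groups (horizontal axis). Dots mark adjusted p under 0.05. Bnip3 carries a dot in 5 of the 6 columns and Optn in 4, Ulk1 and Atg13 are dotted in reduced KSOM and targeted OVX, and no regulator has a dot.

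In the initiation complex, 2 of 5 genes fell in reduced KSOM and in targeted OVX, and none passed the test in the other 3 groups. Ulk1 (chr5:110784488-110810097 on GRCm38) encodes the kinase that starts autophagosome formation. Its level was 50.3 and 47.6 CPM in E4.5, 20.6 and 23.4 in OVX, 29.7 and 53.8 in starvation, 59 and 51.6 in depleted KSOM, 9.92, 10.5 and 12.7 in reduced KSOM, and 13.2 and 12.5 in targeted OVX. All 5 reduced KSOM and targeted OVX libraries lay below every other library, and depleted KSOM lay above E4.5. Ulk1 fell 4.43-fold in reduced KSOM (−2.15 ± 0.32, edgeR adjusted p = 0.0141) and 3.81-fold in targeted OVX (−1.93 ± 0.36, adjusted p = 0.0179). In OVX its change was −1.15 ± 0.35 (adjusted p = 0.118), and between targeted OVX and OVX it was −0.78 ± 0.35 (adjusted p = 0.448).

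Atg13 (chr2:91674618-91710576), the adaptor that ties ULK1 to its complex, was at 66.4 and 87.5 CPM in E4.5, 31.4 and 42 in OVX, 54.2 and 37.6 in starvation, 70.1 and 55 in depleted KSOM, 24.4, 31.6 and 28.6 in reduced KSOM, and 27.4 and 29.5 in targeted OVX. OVX, starvation, reduced KSOM and targeted OVX all lay below E4.5 without overlap, whereas depleted KSOM overlapped it. Atg13 fell 2.73-fold in reduced KSOM (−1.45 ± 0.3, edgeR adjusted p = 0.0386) and 2.7-fold in targeted OVX (−1.43 ± 0.34, adjusted p = 0.043). In the average the change was −0.89 (edgeR adjusted p = 0.055). It was called there by DESeq2 (−0.91), by limma (−1.23) and with library totals (−1.35). Ulk2, Rb1cc1 and Atg101, the second ULK kinase and 2 scaffold subunits, did not pass the test in any of the 11 comparisons. Compared per transcript length, Ulk2 averaged 0.541 FPKM over the 13 libraries and Ulk1 4.76 FPKM. The muscle and neutrophil sums given above were 757 to 1170 and 1380 to 1910 CPM in reduced KSOM, 4.54 and 3.79 and then 17.1 and 35.3 CPM in targeted OVX, and 5.3 and 13.3 and then 1.87 and 1.45 CPM in E4.5. The low E4.5 sums follow from the choice of markers. Of all 13 neutrophil markers 1 passed in targeted OVX, S100a8, which rose 130-fold (edgeR adjusted p = 0.0282). Of the 13, 7 had fitted changes above 0 there and 4 below. Together the 13 summed to 32.5 and 58.8 CPM in targeted OVX and to 73.6 and 127 CPM in E4.5. The part of these transcripts in the changes of Ulk1 and Atg13 was not tested. With a term for the 4 libraries holding muscle transcripts, the reduced KSOM changes were −1.96 for Ulk1 (adjusted p = 0.423) and −1.03 for Atg13 (adjusted p = 0.678). Without any 1 of the reduced KSOM libraries edgeR called 0 of the 42 genes in that comparison, with 6 to 8 at an unadjusted p under 0.05, and 9, 37 and 31 of all genes (without replicates 1, 2 and 3) where it had called 247.

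Of the 6 nucleation genes, 1 rose, in depleted KSOM. Becn1 (chr11:101285952-101302286), which encodes Beclin 1, the scaffold of the PI3-kinase complex, was at 25.4 and 26.4 CPM in E4.5, 56 and 58.3 in OVX, 28.2 and 43.8 in starvation, 87.3 and 98.1 in depleted KSOM, 38.1, 31.6 and 34.5 in reduced KSOM, and 45.9 and 50.4 in targeted OVX. No library was as low as E4.5, and both depleted KSOM libraries exceeded all others. Becn1 rose 3.58-fold in depleted KSOM (1.84 ± 0.31, edgeR adjusted p = 0.00706) and 1.96-fold in the average of the 4 induced groups (0.97 ± 0.26, adjusted p = 0.049). In OVX the change was 1.14 ± 0.31 (adjusted p = 0.0786). Scaled by library totals, the average was 0.51 (adjusted p = 0.35), and the depleted KSOM change was 1.52 (adjusted p = 0.0509).

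Pik3c3, the catalytic subunit VPS34, stood at 15.9 and 15.3 CPM in E4.5, 26.7 and 16 in OVX, 34.8 and 34.6 in starvation, 47.3 and 37.2 in depleted KSOM, 16.9, 19.3 and 11.1 in reduced KSOM, and 9.23 and 18.3 in targeted OVX. Its depleted KSOM libraries were above all others and starvation came next, but neither change against E4.5 passed the test (1.44 ± 0.44, edgeR adjusted p = 0.0786, and 1.15 ± 0.43, adjusted p = 0.195). Atg14, the subunit that directs the complex to the site of autophagosome formation, went the other way in its values. It was at 55.2 and 54.4 CPM in E4.5, 63.9 and 11.7 in OVX, 22.3 and 39.4 in starvation, 16.9 and 14 in depleted KSOM, 30.3, 29.5 and 33 in reduced KSOM, and 19.2 and 9.92 in targeted OVX. Every library other than OVX replicate 1 lay below both E4.5 libraries, yet no change passed the test (depleted KSOM −1.83 ± 0.62, adjusted p = 0.114; targeted OVX −1.91 ± 0.62, adjusted p = 0.125). Pik3r4, Uvrag and Ambra1 changed by −1.12 to 0.58 against E4.5 over the 5 groups, and none of them passed.

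Among the PI3P effectors and lipid transfer proteins, Atg2a fell and the other 4 genes did not pass the test. ATG2A (gene at chr19:6241668-6262335) forms a bridge along which lipid moves from the endoplasmic reticulum into the growing membrane. Atg2a was at 46.9 and 40.9 CPM in E4.5, 19.1 and 14.5 in OVX, 9.22 and 5.42 in starvation, 12 and 12.3 in depleted KSOM, 10.6, 22.8 and 9.69 in reduced KSOM, and 11 and 18.9 in targeted OVX. All 11 other libraries were below the E4.5 pair, with starvation lowest. It fell 6-fold in starvation (−2.59 ± 0.52, edgeR adjusted p = 0.0244) and 3.63-fold in the average of the 4 induced groups (−1.86 ± 0.34, adjusted p = 0.0124). In depleted KSOM the change was −1.86 ± 0.5 (adjusted p = 0.0504), and it lay between −1.39 and −1.61 in OVX, reduced KSOM and targeted OVX without passing. With the muscle term the average was −2.01 (adjusted p = 0.0504). Wipi2, a PI3P reader that recruits the conjugation machinery, was at 128 and 173 CPM in E4.5 and at 53 and 83.3 in targeted OVX (−1.14 ± 0.34, adjusted p = 0.0965), with 84.5 to 152 CPM in the other 9 libraries. Wipi1, Atg2b and Atg9a lay under 20 CPM in every library.

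In depleted KSOM the fitted change was above 0 for all 10 conjugation enzymes (median 1.01, or 0.68 with library totals, against −0.09 and −0.41 over all genes), although 1 of the 10 passed the test. That gene, Atg4b (chr1:93751500-93790610), encodes the protease that trims ATG8 proteins before they are attached and frees them afterwards. It was at 70 and 73.8 CPM in E4.5, 123 and 125 in OVX, 144 and 183 in starvation, 202 and 158 in depleted KSOM, 113, 124 and 102 in reduced KSOM, and 44.6 and 43.3 in targeted OVX. The 9 libraries of the 4 induced groups were all above E4.5 and the targeted OVX pair was below it. Atg4b rose 2.27-fold in starvation (1.19 ± 0.28, edgeR adjusted p = 0.0478), 2.5-fold in depleted KSOM (1.32 ± 0.28, adjusted p = 0.0179) and 1.98-fold in the average (0.99 ± 0.23, adjusted p = 0.0314). None of these 3 calls held with library totals, where the changes were 0.95, 1 and 0.53 (adjusted p = 0.229, 0.144 and 0.284). Targeted OVX against OVX gave −1.5 ± 0.28 (adjusted p = 0.0874).

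Atg3, the E2-like enzyme that hands ATG8 proteins to phosphatidylethanolamine and the gene with 2 CACGTG matches above, was at 24.5 and 24.7 CPM in E4.5 and between 27.5 and 58.8 CPM in the other 11 libraries. All 11 lay above E4.5, and the largest change, 1.18 ± 0.37 in depleted KSOM, did not pass (edgeR adjusted p = 0.0902). The remaining 8 enzymes, Atg4a, Atg4c, Atg4d, Atg5, Atg7, Atg10, Atg12 and Atg16l1, did not pass in any comparison. Their fitted changes against E4.5 in the 5 groups ran from −1.76 (Atg7 in targeted OVX) to 1.97 (Atg10 in OVX).

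The 5 measured ATG8 genes spanned a wide range of levels, compared here per transcript length as the deposited FPKM. Gabarapl2, encoding GATE-16, ranked between 46th and 95th of all 31528 genes in each library, at 972 to 1763 FPKM. Map1lc3b (LC3B) averaged 323 FPKM over the 13 libraries, Gabarap 88.6 and Map1lc3a 69.4. The GABARAP subfamily made up 53.7% and 70.4% of the summed ATG8 FPKM in E4.5, 74.6% and 84.3% in OVX, 70.8% and 85.5% in starvation, 82.6% and 83.2% in depleted KSOM, 77.5% to 79.7% in reduced KSOM, and 81.3% and 82.2% in targeted OVX. Its share was higher in each of the 11 libraries of embryonic day 5.5 than in either E4.5 library; this share was not tested.

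**Figure D2:**
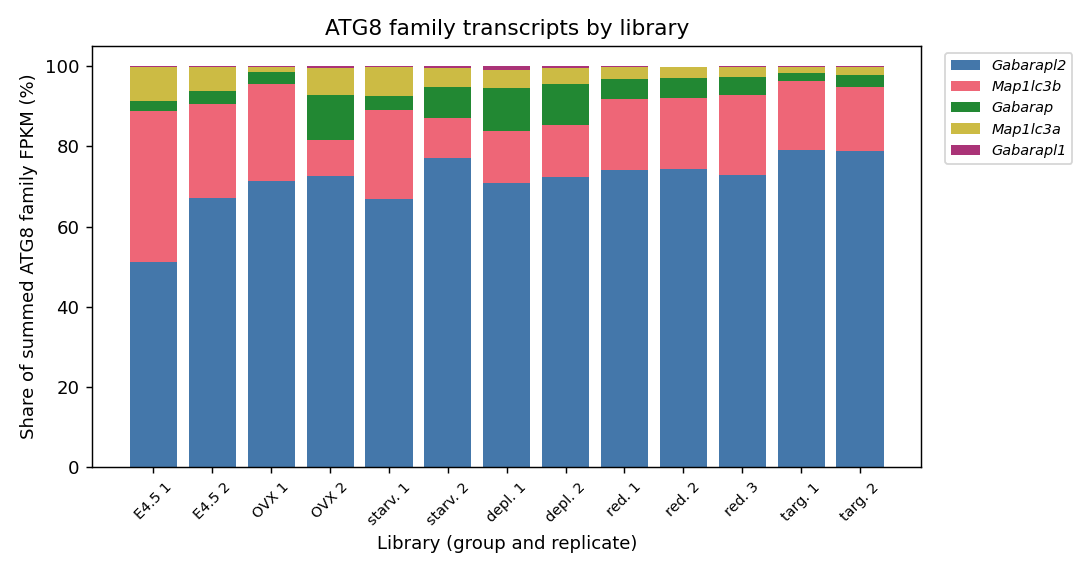
Share of the summed FPKM of the 5 ATG8 genes (vertical axis, %) in each of the 13 libraries (horizontal axis, group and replicate). Gabarapl2 takes over 50% in every library, Map1lc3b takes 37.7% and 23.5% in E4.5 and 9.02% to 24.2% elsewhere, and Gabarap reaches 11.2% in OVX replicate 2.

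Gabarap (chr11:69991143-69994951) was the ATG8 gene that rose. It was at 71.8 and 80.5 CPM in E4.5, 200 and 319 in OVX, 102 and 199 in starvation, 265 and 264 in depleted KSOM, 192, 221 and 168 in reduced KSOM, and 120 and 117 in targeted OVX. E4.5 was lowest throughout, without overlap with any group. Gabarap rose 3.41-fold in OVX (1.77 ± 0.36, edgeR adjusted p = 0.0285), 3.48-fold in depleted KSOM (1.8 ± 0.36, adjusted p = 0.0137) and 2.78-fold in the average (1.47 ± 0.31, adjusted p = 0.0193). The reduced KSOM change of 1.35 ± 0.33 did not pass (adjusted p = 0.0782), nor did starvation (0.98 ± 0.35, adjusted p = 0.175) or targeted OVX (0.64 ± 0.35, adjusted p = 0.359). With library totals the 3 calls were lost, at 1.25, 1.47 and 1.04 (adjusted p = 0.202, 0.0957 and 0.12).

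The other 4 ATG8 genes did not pass in any comparison. Gabarapl2 was at 1890 and 2160 CPM in E4.5, 5630 and 2610 in OVX, 2370 and 2480 in starvation, 2210 and 2380 in depleted KSOM, 3640, 4000 and 3560 in reduced KSOM, and 5930 and 3750 in targeted OVX. Although all 11 values exceeded E4.5, the change in targeted OVX was 1.25 ± 0.39 (edgeR adjusted p = 0.111), and in the average with library totals it was 0.08. Map1lc3b varied between replicates, at 4520 and 2450 CPM in E4.5, 6160 and 1050 in OVX, 2540 and 1020 in starvation, and 1300 and 1370 in depleted KSOM. Its reduced KSOM libraries lay at 2820 to 3130 CPM and targeted OVX at 4140 and 2440 CPM, so that all groups but depleted KSOM overlapped E4.5. Map1lc3a ranged from 47.3 CPM (targeted OVX) to 162 CPM (E4.5), and Gabarapl1 from 4.2 CPM (E4.5) to 25.9 CPM (depleted KSOM).

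The cargo receptors held the genes that passed most often, Optn in 6 of the 11 comparisons and Bnip3 in 5. Their median change was 1.45 in depleted KSOM, 0.75 in starvation, 0.54 in reduced KSOM, 0.42 in OVX and −0.34 in targeted OVX, and with library totals 1.14, 0.52, −0.13, −0.13 and −1.1. The signs in OVX and reduced KSOM therefore depend on the scaling, with the medians of all genes under it as given above. Bnip3 (chr7:138890836-138909519), a mitochondrial outer membrane protein that binds ATG8 proteins and is known as a target of hypoxia signalling, was at 96.4 and 134 CPM in E4.5, 556 and 381 in OVX, 540 and 830 in starvation, 462 and 513 in depleted KSOM, 222, 220 and 273 in reduced KSOM, and 417 and 809 in targeted OVX. E4.5 was lowest and no group overlapped it, while reduced KSOM lay between E4.5 and the rest. Bnip3 rose 4.07-fold in OVX (2.02 ± 0.39, edgeR adjusted p = 0.0224), 5.95-fold in starvation (2.57 ± 0.4, adjusted p = 0.00989), 4.23-fold in depleted KSOM (2.08 ± 0.39, adjusted p = 0.0106) and 5.32-fold in targeted OVX (2.41 ± 0.39, adjusted p = 0.00973).

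In reduced KSOM the Bnip3 change was 1.05 ± 0.35 (edgeR adjusted p = 0.181), and against depleted KSOM it was −1.03 ± 0.34 (adjusted p = 0.0932). Its call in OVX was lost with library totals (1.34, adjusted p = 0.111), with the muscle term (1.73, adjusted p = 0.0844) and without OVX replicate 1 (1.73, adjusted p = 0.0628), the library with muscle and neutrophil transcripts. Bnip3l, the related receptor NIX, was at 49.6 and 53.8 CPM in E4.5, 59.6 to 118 CPM in the 4 induced groups and 40.5 and 30.3 CPM in targeted OVX, with no call. The ratio of Bnip3 to Bnip3l FPKM was 3.31 and 4.25 in E4.5, 8.04 and 5.79 in OVX, 10.2 and 23.8 in starvation, 9.03 and 10.9 in depleted KSOM, 3.75, 3.39 and 7.54 in reduced KSOM, and 17.6 and 45.5 in targeted OVX.

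Optn (chr2:5020642-5064045) encodes optineurin, a receptor that links ubiquitinated mitochondria and bacteria to ATG8 proteins. It was at 15 and 21.4 CPM in E4.5, 22.5 and 19.7 in OVX, 78.3 and 104 in starvation, 100 and 72.5 in depleted KSOM, 60.4, 59.2 and 53.4 in reduced KSOM, and 7.99 and 11.9 in targeted OVX. OVX overlapped E4.5, the other 3 induced groups lay above both without overlap, and targeted OVX lay below. Optn rose 5.01-fold in starvation (2.33 ± 0.35, edgeR adjusted p = 0.00989), 4.75-fold in depleted KSOM (2.25 ± 0.35, adjusted p = 0.00474) and 3.18-fold in reduced KSOM (1.67 ± 0.33, adjusted p = 0.0335). In OVX its change was 0.21 ± 0.34 (adjusted p = 0.826) and in targeted OVX −0.87 ± 0.34 (adjusted p = 0.203). The reduced KSOM call was lost with library totals (0.98, adjusted p = 0.192) and with the muscle term (1.48, adjusted p = 0.573).

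Tax1bp1 (chr6:52713729-52766780), a receptor for ubiquitinated cargo related to NDP52, was at 80.6 and 81.9 CPM in E4.5, 146 and 126 in OVX, 86.3 and 208 in starvation, 283 and 320 in depleted KSOM, 115, 117 and 100 in reduced KSOM, and 89.3 and 69.3 in targeted OVX. The depleted KSOM pair was above all other libraries. Tax1bp1 rose 3.71-fold there (1.89 ± 0.38, edgeR adjusted p = 0.0137), and with library totals the change was 1.57 (adjusted p = 0.0524). Sqstm1, which encodes p62, the receptor most used as a readout of autophagic flux at the protein level, kept a narrow range of transcript levels. It was at 64.5 and 71.5 CPM in E4.5, 56.9 to 114 CPM in the 4 induced groups and 43 and 53.8 CPM in targeted OVX, with no call. Nbr1, Calcoco1 and Fundc1 did not pass in any comparison, and their most distant values were 2.02 for Nbr1 and −1.72 for Calcoco1, both in targeted OVX.

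**Figure D3:**
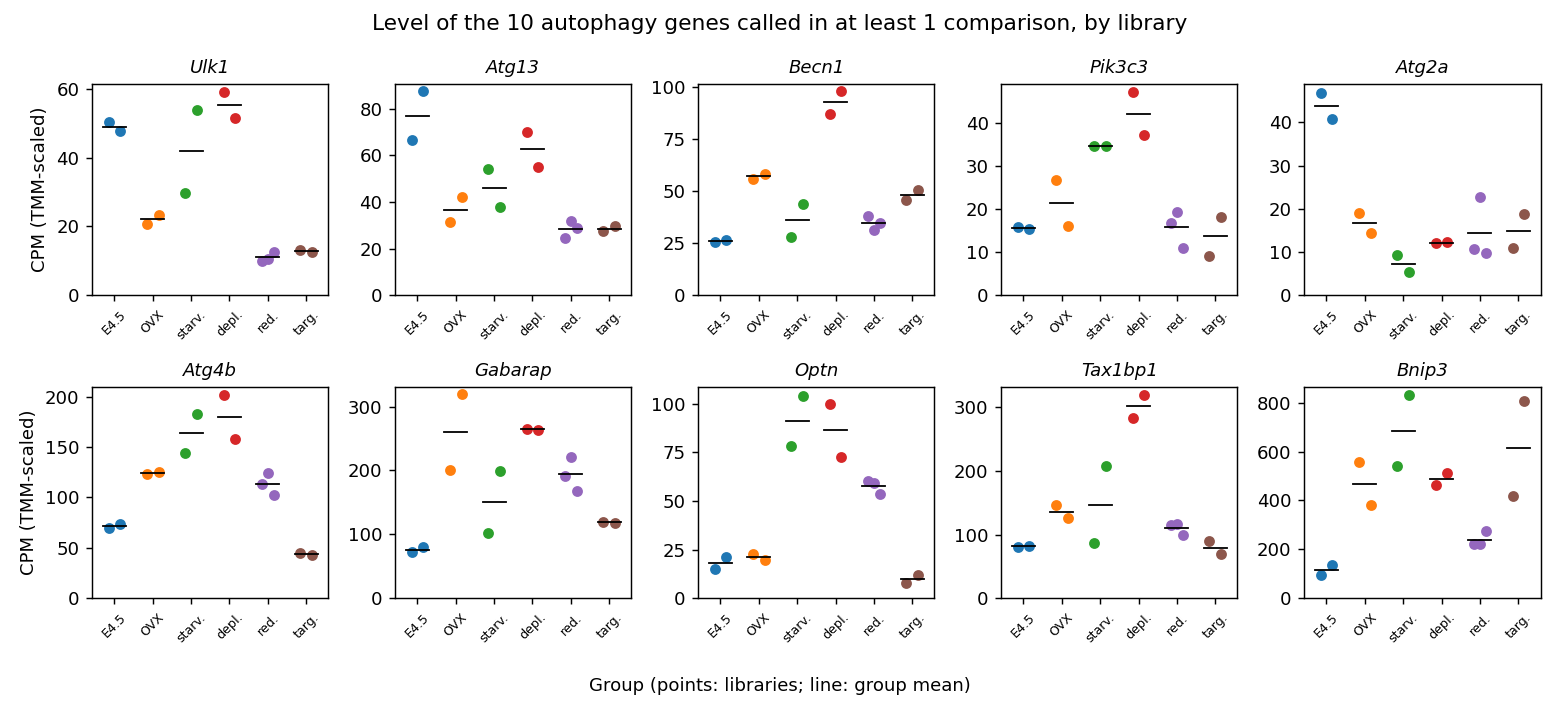
TMM-scaled CPM (vertical axes, from 0) of the 10 genes that passed the test in at least 1 comparison, by group (horizontal axes; starv., depl., red. and targ. stand for starvation, depleted KSOM, reduced KSOM and targeted OVX). Points are libraries and lines are group means. Bnip3 is lowest in E4.5, Optn is high in starvation and in both KSOM groups, and Ulk1 is lowest in reduced KSOM and targeted OVX.

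None of the 3 TFEB family genes passed the test in any of the 11 comparisons by edgeR, and none reached an unadjusted p under 0.05. Tfeb (chr17:47737030-47792419) was at 6.75 and 7.33 FPKM in E4.5, 0.36 and 4.76 in OVX, 4.38 and 2.88 in starvation, 4.12 and 0.98 in depleted KSOM, 2.15, 2.45 and 1.55 in reduced KSOM, and 1.74 and 4.28 in targeted OVX. All 11 other libraries were below the E4.5 pair on this scale, which is relative to the total of each library, and replicates of OVX and depleted KSOM lay far apart. On TMM-scaled counts the fitted values for Tfeb were −1.13 ± 0.8 (OVX), −0.7 ± 0.79 (starvation), −1.19 ± 0.8 (depleted KSOM), −1.12 ± 0.71 (reduced KSOM) and −0.53 ± 0.79 (targeted OVX), with no call (edgeR adjusted p from 0.392 to 0.788). With standard errors this large, a change of the fitted size was not detectable in these libraries.

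Tfe3 was at 0.06 and 1.38 FPKM in E4.5, 0.06 and 1.2 in OVX, 1.14 and 2.06 in starvation, and 0.25 to 0.74 in the 7 libraries of the other groups. Both low values came from replicate 1 of their group. Mitf stayed at 0.71 FPKM or less in every library and had 0 counts in targeted OVX replicate 2, which allows up to 0.0846 CPM (3 counts, counting error only). Tfe3 and Mitf changes in the average of the 4 induced groups, 0.35 ± 0.94 and 0.31 ± 1.19, turned to −0.08 and −0.2 with library totals. By mean FPKM the family ranked Tfeb, Tfe3, Mitf.

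**Figure D4:**
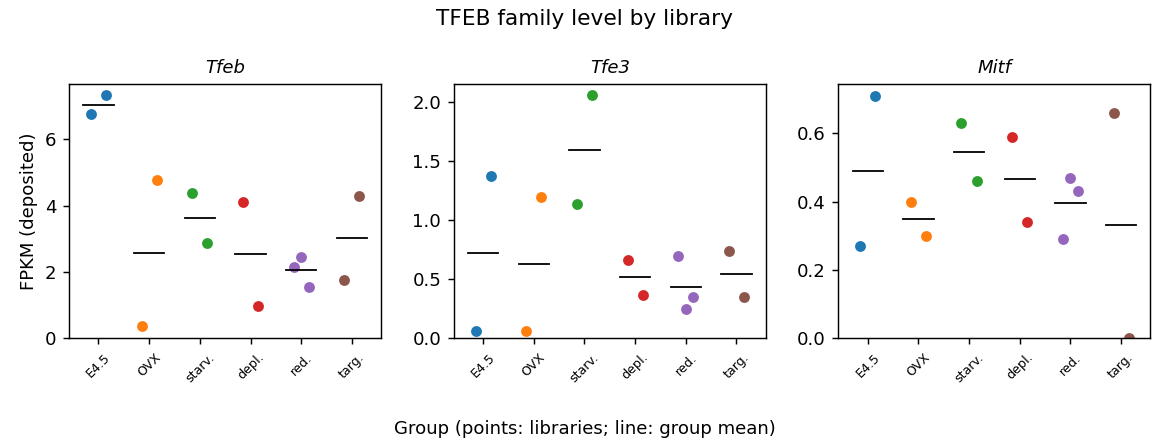
Deposited FPKM (vertical axes, from 0) of Tfeb, Tfe3 and Mitf by group (horizontal axes). Points are libraries and lines are group means. Tfeb is highest in E4.5 at 6.75 and 7.33 FPKM, and replicates of Tfe3 differ by over 1 FPKM in E4.5 and OVX.

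Comparisons that leave out the E4.5 libraries set the groups of one age side by side. Starvation differed from OVX in 1 of 42 genes (2.38%), where 0.225% of all genes differed (0.078% higher and 0.147% lower). Depleted KSOM differed from OVX in 1 (2.38%), where 0.679% of all genes differed (0.289% higher and 0.39% lower). In both the gene was Optn, which was 4.32-fold higher in starvation (2.11 ± 0.35, edgeR adjusted p = 0.039) and 4.1-fold higher in depleted KSOM (2.04 ± 0.35, adjusted p = 0.0255). Reduced KSOM against OVX gave 1.45 ± 0.32 for Optn (adjusted p = 0.106). Both calls were lost without OVX replicate 1 (adjusted p = 0.117 and 0.0871), while the changes stood at 2.21 and 2.13. The 3 comparisons share the OVX libraries.

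Between the cultured groups, 5 of 42 genes (11.9%) were lower in reduced than in depleted KSOM and 0 were higher, where 5.79% of all genes differed (2.8% lower and 2.99% higher). Ulk1 was 5.01-fold lower (−2.32 ± 0.32, edgeR adjusted p = 0.00548), Pik3c3 2.68-fold lower (−1.42 ± 0.39, adjusted p = 0.0495), Becn1 2.67-fold lower (−1.42 ± 0.27, adjusted p = 0.0171), Tax1bp1 2.71-fold lower (−1.44 ± 0.33, adjusted p = 0.0294) and Atg13 2.22-fold lower (−1.15 ± 0.3, adjusted p = 0.0417). For each of the 5 the libraries of the groups did not overlap, which adds nothing to the test, since it picked the genes from these same libraries. The 42 genes had a median of −0.51 and all genes 0.29, or −0.87 and 0 with library totals. Muscle and neutrophil transcripts separated the same groups, at 757 to 1170 CPM and 1380 to 1910 CPM in reduced against at most 30 and 7.39 CPM in depleted KSOM, and their part in these differences was not tested. With the muscle term edgeR called 0 of the 42 genes and 0 of all 21808 genes, with 8 of the 42 at an unadjusted p under 0.05, and Ulk1 stood at −2.14 (adjusted p = 0.369). Of the 5, Ulk1 alone kept its call without each of the 5 libraries in turn (adjusted p from 0.0185 to 0.036).

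Targeted OVX against OVX gave no call among the 42 genes by edgeR, where 0.0367% of all genes were called (0.00459% higher and 0.0321% lower). The labels name no ovariectomy group with control guides, so targeting and guide delivery cannot be told apart. OVX replicate 1 held 999 and 646 CPM of the muscle and neutrophil markers. Targeted OVX held 4.54 and 3.79 CPM of the first and 17.1 and 35.3 CPM of the second. The part of these transcripts in this comparison was not tested. At an unadjusted p under 0.05 there were 9 of the 42 genes, beside 2372 of all 21808. DESeq2 called 3 of the 42, all lower, and limma called 0. Of all genes DESeq2 called 885, of which 661 were lower and 224 higher. Limma called 20 of the 10252 genes it tested. The median was −0.37, against −0.09 over all genes, and the values most distant from 0 were −1.81 (Ulk2) and 1.46 (Nbr1). Ulk1 (−0.78 ± 0.35), Gabarap (−1.13 ± 0.35), Optn (−1.08 ± 0.34) and Bnip3 (0.39 ± 0.38) had edgeR adjusted p of 0.448, 0.275, 0.277 and 0.728. Reduced KSOM against OVX likewise gave no call, where 0.202% of all genes were called (0.0229% higher and 0.179% lower). At an unadjusted p under 0.05 it had 6 of the 42 genes, beside 2067 of all 21808. DESeq2 called 1 of the 42 and 699 of all genes. Limma called 0 of the 42 and 119 of the 10252 it tested.

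Other genes of the pathway came from 4 further lists. Of 12 other core and membrane source genes, 2 rose in starvation, Wdr45b (2.64, edgeR adjusted p = 0.00989) and Vmp1 (1.67, adjusted p = 0.0321). In depleted KSOM 3 of them rose, Wdr45 (1.44), Wdr45b (1.68) and Vmp1 (1.51), and 1 fell, Tmem41b (−1.72). In the average Vmp1 rose (1.25) and Tmem41b fell (−1.48, edgeR adjusted p = 0.0172). WDR45 and WDR45B are PI3P readers of the WIPI family, and VMP1 is a lipid scramblase of the endoplasmic reticulum. In reduced against depleted KSOM, Wdr45 (−1.25) and Wdr45b (−1.86) were lower. None of the 12 passed in OVX, reduced KSOM or targeted OVX against E4.5, where 5, 3 and 3 had an unadjusted p under 0.05. Of all 21808 genes, 3435, 3304 and 3843 had such a p in these comparisons.

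Of 15 genes of autophagosome fusion with the lysosome, Vamp8, a SNARE of the fusing membranes, rose in OVX (1.99, edgeR adjusted p = 0.0207) and in targeted OVX (2.19, adjusted p = 0.0126). Vps41, a subunit of the HOPS tether, rose in starvation (1.48) and depleted KSOM (1.86), while the SNARE gene Ykt6 fell in depleted KSOM (−1.67). Against depleted KSOM, reduced KSOM had lower Rab7 (−1.38) and Vps41 (−1.2). Of 15 other receptor and mitophagy genes, Tbk1, encoding the kinase that phosphorylates optineurin, rose 5.03-fold in depleted KSOM (2.33 ± 0.44, adjusted p = 0.0111), as did Rtn3 (1.56), and Calcoco2 fell (−2.31). Pink1, which marks damaged mitochondria, fell in targeted OVX (−2.29, adjusted p = 0.0144). Tbk1 was lower in reduced than in depleted KSOM (−2.07, adjusted p = 0.0148). Of 15 upstream kinases and inhibitors, Foxo1 fell in OVX (−2.07), reduced KSOM (−2.26), targeted OVX (−2.16) and the average (−1.45). Stk11 fell in the average (−1.43, adjusted p = 0.0279). None passed in starvation or depleted KSOM against E4.5, where 2 and 3 had an unadjusted p under 0.05. Of all genes, 3658 and 4554 had such a p there. Foxo3 was lower in reduced than in depleted KSOM (−2.27, adjusted p = 0.0135).

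Features that the choice of genes did not use are given as descriptions. Across the 42 genes, longer exon models went with lower fitted changes against E4.5, with rank correlations from −0.35 in OVX to −0.15 in targeted OVX, while over 21780 genes they ran from −0.07 to 0.16. Genes are not independent replicates, and libraries differed in how abundance depended on length. With offsets for length, 28 of the 31 calls above were kept and none changed sign. Of the 42 genes, 20 overlap another gene of those measured, 16 of them one on the opposite strand, among them Becn1, Optn, Bnip3, Atg4b and Tax1bp1. Whether the counting used strand is not given in the sources used here, so reads of such pairs cannot be told apart.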

How the data were processed

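RNA from whole mouse blastocysts was measured in 13 libraries. The deposited table holds an estimated count per gene, given as whole numbers, and FPKM values computed by the authors. Per the submitters' processing notes the tools were cutadapt 1.9, HISAT2 2.0.4 and StringTie 1.3.4d on GRCm38. The annotation, the counting tool and its strand setting are not given in the sources used here.

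Libraries were grouped by their labels into 6 groups. Genes were kept with filterByExpr, scaled by TMM, and tested with the quasi-likelihood functions of edgeR 4.0.16. The 13 libraries entered 1 model holding the 6 group means, which left 7 residual degrees of freedom. The common biological coefficient of variation was 0.9. P-values were Benjamini-Hochberg adjusted over all 21808 genes, in 11 comparisons. A standard error is the size of the log2 fold change divided by the square root of F. The script was tested on simulated data. Depth was between 40678386 and 72125687 counts per library, and amplification copies cannot be told from separate molecules.

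The 42 genes, the lists and the tests were chosen with earlier results of these data known. Genes were named where they passed in a comparison, were among the 2 of a step with the smallest unadjusted p in the average of 4 induced groups, or belong to the ATG8 or TFEB family. Of the 4 other pathway lists, each gene that passed in a comparison was named. Of the cell type markers, only a part of those that passed were named. The remaining genes are given by counts and ranges.

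Alternatives were DESeq2 1.42.0, limma 3.58.1 on log2(FPKM + 1) of the deposited FPKM, median-of-ratios factors, library totals, no filter, a mean CPM of at least 5, only the groups compared, the replicate number as a block, counts divided by 4, length offsets, and leaving out each library. The planned term for libraries with over 100 CPM of 16 muscle genes could not be fitted, since all 13 libraries exceeded it, and was replaced, after seeing the data, by one using the 13 genes under 5 CPM in E4.5. Under it OVX rests on replicate 2, and reduced KSOM is corrected by what separates OVX replicate 1 from replicate 2. Sequence identity of the proteins was not analysed here. R 4.3.3, Python 3.11.15 and matplotlib 3.10.9 were used.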

Additional observations from a re-analysis of the deposited data

Results flagged for a closer look

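For 7 gene differences between groups of the same age, the difference itself passed edgeR's test (Benjamini-Hochberg adjusted p under 0.05). Optn was higher in starvation than in OVX by 2.11 on the log2 scale and higher in depleted KSOM than in OVX by 2.04. In reduced against depleted KSOM, Ulk1 differed by −2.32, Atg13 by −1.15, Becn1 by −1.42, Pik3c3 by −1.42 and Tax1bp1 by −1.44. In each case every library of one group lay outside the range of the other, which adds nothing to the test that picked these differences. OVX replicate 1 and the reduced KSOM libraries carry the muscle and neutrophil transcripts described above, whose part in these differences was not tested. No group has 4 or more libraries, so single libraries were not screened as outliers.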

How the results depend on the processing

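Across all 31 calls no alternative changed a direction. DESeq2, counts divided by 4 and a mean CPM of at least 5 kept all 31, length offsets 28, median-of-ratios factors 27, no filter 27, limma 24, only the groups compared 19, the replicate block 19, library totals 18 and the muscle term 17, which was chosen after seeing the data. In their deviations from the group mean, 30 same-numbered pairs of libraries correlated from −0.06 to 0.07. In a group of 2 libraries these deviations mirror each other, so the 30 pairs are not 30 separate checks. Whether the numbers mark a shared batch was not tested further. With the replicate block as a term, calls among the genes described here fell from 3 to 1 in reduced KSOM. They fell from 5 to 1 in reduced against depleted KSOM, and from 1 to 0 in starvation and in depleted KSOM against OVX. Calls over all genes fell as well, from 247 to 59 in reduced KSOM and from 1263 to 479 in reduced against depleted KSOM. Against OVX, calls over all genes fell from 49 to 0 in starvation and from 148 to 73 in depleted KSOM.

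The number of the 42 genes called moved most with the tool and with the samples in the fit. By DESeq2 it was 7 in OVX, 12 in depleted KSOM, 7 in reduced KSOM, 14 in targeted OVX, 11 in the average, 3 in targeted OVX against OVX, 2 in starvation against OVX, 5 in depleted KSOM against OVX, 1 in reduced KSOM against OVX and 9 in reduced against depleted KSOM. DESeq2 also called more of all genes, 2011 in OVX, 3257 in depleted KSOM, 1753 in reduced KSOM, 2573 in targeted OVX and 2523 in the average, against 445, 1201, 247, 581 and 1093 by edgeR. In the comparisons without E4.5 it called 885, 1635, 1975, 699 and 3561 of all genes, in the order given. By limma it was 4 in OVX, 5 in reduced KSOM, 12 in targeted OVX and 11 in reduced against depleted KSOM. Of the 10252 genes it tested, limma called 1584, 1834, 1933 and 2368 in these comparisons. With only the groups compared it was 0 in OVX, starvation and targeted OVX, where edgeR called 0 of all genes as well, 11 in depleted KSOM, 10 in reduced KSOM, 0 in starvation and in depleted KSOM against OVX, and 16 in reduced against depleted KSOM. The calls over all genes were 2212 of 17607 in depleted KSOM and 2462 of 19373 in reduced KSOM. They were 0 in starvation and in depleted KSOM against OVX, and 4455 of 18505 in reduced against depleted KSOM. With library totals it was 0 in OVX, 7 in targeted OVX and 0 in starvation against OVX, where 287, 764 and 28 of all genes were called. Median-of-ratios factors gave 3 in reduced against depleted KSOM, where 1187 of all genes were called. A mean CPM of at least 5 gave 5 in OVX, 6 in targeted OVX, 2 in depleted KSOM against OVX and 1 in reduced KSOM against OVX. Of the 9292 genes kept, 888, 1039, 384 and 117 were called there. Without a filter it was 5 in reduced KSOM, 6 in targeted OVX, 2 in targeted OVX against OVX, 4 in depleted KSOM against OVX and 1 in reduced KSOM against OVX. Of 31528 genes, 1226, 1638, 636, 1417 and 589 were called in these comparisons. The muscle term gave 1 in OVX, 0 in reduced KSOM, 5 in targeted OVX, and 0 in starvation against OVX, in depleted KSOM against OVX and in reduced against depleted KSOM. Of all genes it called 227 in OVX, 2 in reduced KSOM, 963 in targeted OVX and 0 in reduced against depleted KSOM, against 445, 247, 581 and 1263 without it. In starvation and in depleted KSOM against OVX it called 2 and 42 of all genes, against 49 and 148. The cause of these moves was not tested.

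Leaving out each library in turn gave 0 to 2 calls in OVX, 0 to 6 in starvation, 0 to 4 in depleted KSOM, 0 in reduced KSOM, 0 to 2 in targeted OVX, 0 to 8 in the average, 0 to 1 in targeted OVX against OVX, 0 to 1 in starvation against OVX, 0 to 4 in depleted KSOM against OVX, 0 in reduced KSOM against OVX and 1 in reduced against depleted KSOM. Without E4.5 replicate 1 none of the 24 calls that use E4.5 was kept, and without E4.5 replicate 2, 6 were. Changes that did not pass turned sign in the average of 4 induced groups for Tfe3, to −0.08 under library totals and to −0.58 and −0.31 when E4.5 replicate 1 or OVX replicate 2 was left out (from −0.58 to 3.73 over libraries left out). Mitf turned to −0.2 under library totals, −0.16 under the muscle term and −0.19 when E4.5 replicate 1 was left out (from −0.19 to 1.1). Low counts limit Ulk2, Wipi1, Atg2b, Atg9a, Tfe3 and Mitf, which fell under 1 CPM in at least 1 library.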
